A study of Mus musculus with 2 samples.

Results

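The 10 genes described here encode parts of the NF-kB pathway (Nfkb1, Nfkb2, Relb, Nfkbia, Nfkbid and Tnfaip3) and products that rise when B cells are activated (Cd69, Cd83, Cd86 and Myc). They were taken by name from the 30905 genes of the deposited matrices, all 10 were found, and their unique molecular identifiers (UMIs, each marking 1 captured transcript) were followed through B cell states, T cells and myeloid cells. The cells were leukocytes from colorectal tumors of male C57BL/6 mice, profiled by droplet single-cell RNA-seq of transcript 3′ ends in 2 libraries. The first library came from mice on a fasting-mimicking diet (FMD) and the second from mice fed ad libitum. All mice received 1 dose of azoxymethane (AOM, a colon carcinogen) at 12 mg/kg, then DSS (dextran sodium sulfate, a colitis agent) in 3 cycles of 2.5% for 7 days and water for 14 days, and the diets began with the second cycle. Each library pooled 4 mice, immune cells were enriched on a Percoll gradient and sorted for CD45, and the labels mention location-matched normal colon beside tumor-bearing colon in the preparation while both library titles say tumor.

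NF-kB proteins are dimers that wait in the cytoplasm of resting cells, held by inhibitor proteins of the IkB family. Signals from antigen, CD40, BAFF, cytokine or Toll-like receptors degrade the inhibitors or process the precursor subunits, so that the dimers enter the nucleus and switch on survival, costimulation and cytokine genes. Several inhibitors are themselves target genes, which closes a feedback loop, and activated B cells raise CD69, CD83, CD86 and the growth regulator Myc.

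After filtering, 4622 FMD and 4865 ad libitum cells remained, with 32042619 and 33287258 UMIs. Their median depth was 5742.5 UMIs in FMD and 5506 UMIs in ad libitum cells, and 4 cell barcodes occurred in both libraries. Ptprc, the CD45 gene used for the sort, had a UMI in 93.5% of FMD and 92.0% of ad libitum cells, while Epcam, an epithelial marker, had one in 2.92% of FMD and 3.58% of ad libitum cells. Clustering, done without the 10 genes and without 120 further pathway genes, gave 24 clusters. There were 2724 FMD and 3036 ad libitum B-like cells in 7 clusters, 1343 and 1308 T-like cells in 9 clusters, and 246 and 210 myeloid-like cells in 4 clusters. The B-like clusters were an Egr-high activated, a heat shock-high, an interferon-responding and a Bhlhe41-led memory or B-1-like cluster, and 3 clusters called by their leading genes Fcmr, Plk2 and H2-Oa. Of the state lists, resting follicular B scored highest in these 3, but only at mean log2 scores of 0.06, 0.08 and −0.31. They are therefore called stateless here. Hemoglobin transcripts stood among the 10 leading genes of the Fcmr-led and H2-Oa-led clusters. Levels are counts per 1000000 UMIs of the cell class outside immunoglobulin and mitochondrial genes (CPM), and their order was taken over 21 clusters, without the unnamed low-depth, mast-like and plasmacytoid dendritic-like clusters. With 1 library per diet there was no replicate and no test: each contrast sets 1 library beside another. Log2 ratios between the diets have FMD on top. Brackets hold 95% intervals that cover counting error only and, since UMIs of 1 cell are not independent, are too narrow.

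The pathway's own subunits and inhibitors were followed first. For 4 of them a reference promoter was at hand (RefSeq, build GRCm38.p6), and 1 window of 300 bases each is shown, without a claim on which sites act in feedback. The capitals mark the NF-kB motif searched, GGGA and CC with any 4 bases between them, on either strand, and a match found on both strands at the same place is marked once. The windows are chr12:55492598-55492897 on the minus strand for Nfkbia, chr19:46304487-46304786 on the plus strand for Nfkb2, chr7:30422156-30422455 on the plus strand for Nfkbid and chr10:19015361-19015660 on the minus strand for Tnfaip3.
Nfkbia: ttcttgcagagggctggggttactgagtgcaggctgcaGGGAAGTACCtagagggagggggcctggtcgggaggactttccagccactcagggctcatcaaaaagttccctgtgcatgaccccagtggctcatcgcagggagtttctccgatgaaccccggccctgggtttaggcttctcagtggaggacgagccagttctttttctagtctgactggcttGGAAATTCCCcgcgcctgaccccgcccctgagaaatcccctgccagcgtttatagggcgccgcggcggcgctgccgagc
Nfkb2: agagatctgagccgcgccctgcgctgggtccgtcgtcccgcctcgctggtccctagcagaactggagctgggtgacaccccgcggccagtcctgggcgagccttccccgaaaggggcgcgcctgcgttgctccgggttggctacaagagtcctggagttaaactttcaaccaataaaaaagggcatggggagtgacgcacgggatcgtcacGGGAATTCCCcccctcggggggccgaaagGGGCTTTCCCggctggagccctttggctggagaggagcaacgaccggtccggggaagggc
Nfkbid: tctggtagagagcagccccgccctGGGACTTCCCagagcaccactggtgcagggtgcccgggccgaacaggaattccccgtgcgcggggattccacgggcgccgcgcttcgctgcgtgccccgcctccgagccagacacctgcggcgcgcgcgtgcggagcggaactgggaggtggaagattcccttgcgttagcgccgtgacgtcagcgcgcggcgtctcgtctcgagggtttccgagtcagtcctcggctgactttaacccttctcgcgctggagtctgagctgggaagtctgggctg
Tnfaip3: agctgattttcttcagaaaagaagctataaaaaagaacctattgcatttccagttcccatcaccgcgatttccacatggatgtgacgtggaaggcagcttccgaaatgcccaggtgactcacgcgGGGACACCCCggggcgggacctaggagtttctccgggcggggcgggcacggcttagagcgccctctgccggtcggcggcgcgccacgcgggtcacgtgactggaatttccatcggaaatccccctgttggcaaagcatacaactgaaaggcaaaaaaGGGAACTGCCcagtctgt
The Nfkbia window held matches beginning 212 and 29 bases before the start site, and the Nfkb2 window held matches beginning 39 and 10 bases before it. In Nfkbid, of whose 3 windows this one alone held a match and was shown for it, the match began 226 bases before the start site, and in Tnfaip3 the matches began 125 bases before and 32 bases after it. The motif was present in 7 of the 9 promoter windows listed for these 4 genes, and in 20.7% of 32851 windows of the same length for all genes. A match describes letters in a window and is not a measured binding site. Sites spelled otherwise than this pattern stay in small letters, so the capitals need not be the sites that NF-kB uses. Relb, Nfkb1, Cd69, Cd83, Cd86 and Myc had no window in the table.

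Nfkb1 (ENSMUSG00000028163, chromosome 3, 135584655 to 135691547, GRCm38), which encodes the precursor of a canonical NF-kB subunit, was highest in innate lymphoid-like cells, cytokine-secreting lymphocytes without antigen receptors. It had 2807 CPM there in FMD and 2485 CPM in ad libitum cells, in 81 and 25 cells. The next level was that of a regulatory T-like cluster led by Penk, with 941 CPM in FMD and 1148 CPM in ad libitum cells. The ranges, each spanned by the FMD and the ad libitum value, did not overlap between these neighbors. Such a range measures no spread between replicates. Across whole classes Nfkb1 had 323 CPM in FMD and 296 CPM in ad libitum B-like cells, 532 and 528 CPM in T-like cells, and 508 and 434 CPM in myeloid-like cells. Plasma-like cells were lowest with 38.3 CPM in FMD and 58.0 CPM in ad libitum cells. Part of the gene overlaps a gene model on the same strand, Gm43430, and reads there cannot be assigned with certainty.

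Nfkb2 (ENSMUSG00000025225, chromosome 19, 46304320 to 46312385), the precursor subunit of the alternative pathway, was highest in the Penk-led regulatory T-like cluster, with 259 CPM in FMD and 234 CPM in ad libitum cells. Neutrophil-like cells followed with 219.5 CPM in FMD and 215 CPM in ad libitum cells. In B-like cells it was close to even across states, from 66.6 CPM in the FMD interferon-responding cluster to 95.9 CPM in the ad libitum Egr-high cluster. Nfkb2 overlaps Psd and AC114539.1 on the other strand, and whether counting used strand was not given in the sources used here. Relb (ENSMUSG00000002983, chromosome 7, 19606217 to 19629438), the usual partner of the Nfkb2 product, had 192 CPM in FMD and 238 CPM in ad libitum macrophage or dendritic-like cells. Gamma delta T-like cells had 239.7 CPM in FMD and 188 CPM in ad libitum cells, so the ranges overlapped and the order of these first places is not settled.

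Nfkbia (ENSMUSG00000021025, chromosome 12, 55489410 to 55492647), which encodes IkB-alpha, the inhibitor that is degraded first and made again as a target gene, separated the classes widely. Its level was 211 CPM in FMD and 215 CPM in ad libitum B-like cells, 1256 and 1263 CPM in T-like cells, and 1605 and 1950.4 CPM in myeloid-like cells. Innate lymphoid-like cells were highest with 3238 CPM in FMD and 3058 CPM in ad libitum cells, and neutrophil-like cells followed with 2231 and 2807 CPM. T-like cells stood 5.94-fold above B-like cells in the FMD library and 5.87-fold above them in the ad libitum library. Nfkbia in plasma-like cells, which secrete antibody, was 767 CPM in FMD and 805 CPM in ad libitum cells. That was 4.95-fold above the 3 stateless B-like clusters in the FMD library and 4.64-fold above them in the ad libitum library.

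Tnfaip3 (ENSMUSG00000019850, chromosome 10, 19000910 to 19015657), a ubiquitin-editing enzyme that shuts NF-kB signaling off, was likewise higher in T-like than in B-like cells. T-like cells had 1132 CPM in FMD and 1078 CPM in ad libitum cells, against 161 and 157 CPM in B-like cells, a ratio of 7.03 in the FMD and 6.85 in the ad libitum library. Innate lymphoid-like cells were again highest, with 2638 CPM in FMD and 2004 CPM in ad libitum cells. Unlike Nfkbia, Tnfaip3 was lower in myeloid-like than in T-like cells, with 361 CPM in FMD and 370 CPM in ad libitum myeloid-like cells. Nor was it raised in plasma-like cells, which had 143 CPM of Tnfaip3 in FMD and 140 CPM in ad libitum cells. Nfkbid (ENSMUSG00000036931, chromosome 7, 30421732 to 30428746), a nuclear IkB protein induced by antigen receptor signals, differed from Nfkbia and Tnfaip3. Its highest level was in Egr-high activated B-like cells, with 292 CPM in FMD and 253 CPM in ad libitum cells, and its lowest in plasma-like cells, with 9.57 and 12.97 CPM. The next cluster, innate lymphoid-like cells, was lower in each library, with 227 CPM in FMD and 184 CPM in ad libitum cells. Those values rest on 136 and 34 UMIs, so the order of these neighbors is uncertain.

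The 4 activation genes fell mostly on the B cell side. Cd83 (ENSMUSG00000015396, chromosome 13, 43784775 to 43803132), a surface protein that stabilizes MHC class II and CD86 at the membrane, had 1000.01 CPM in FMD and 1109.7 CPM in ad libitum B-like cells, 114 and 115 CPM in T-like cells and 805 and 679 CPM in myeloid-like cells. Its T-like level was uneven between clusters. The Penk-led regulatory T-like cells had 785 CPM in FMD and 739 CPM in ad libitum cells, within reach of the H2-Oa-led B-like cluster with 780.3 and 879 CPM, while regulatory T-like cells led by Il10 had 56.4 and 63.1 CPM. Thinned to 1000 UMIs per cell, 59.0% [45.7, 71.4] of FMD and 39.4% [28.0, 51.7] of ad libitum Penk-led cells held a Cd83 UMI. Cd79a, the B cell receptor component, was at 12.0 CPM in FMD and 14.9 CPM in ad libitum Penk-led cells, against 1608.5 and 1639 CPM in B-like cells, so B cell transcripts in that cluster were near 0.

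Cd86 (ENSMUSG00000022901, chromosome 16, 36603869 to 36666081), a costimulatory ligand for T cells, had 448 CPM in FMD and 395 CPM in ad libitum B-like cells and 439.8 and 347 CPM in myeloid-like cells. T-like cells had 21.3 CPM in FMD and 18.9 CPM in ad libitum cells, and 1.82% of FMD and 1.78% of ad libitum T-like cells held a Cd86 UMI at 1000 UMIs per cell. Cd79a, which T cells lack, had a UMI in 1.67% and 0.928% of the same cells, with intervals of [1.17, 2.69] in FMD and [1.13, 2.66] in ad libitum cells for Cd86 and of [1.05, 2.51] and [0.480, 1.62] for Cd79a. Cd86 was 21.04-fold higher in B-like than in T-like cells of the FMD library and 20.9-fold higher in the ad libitum library, against 42.3-fold and 85.2-fold for Cd79a. Median depth was 7185 UMIs in T-like cells of both libraries and 5216 UMIs in FMD and 5075.5 UMIs in ad libitum B-like cells. Among the named clusters of the B lineage Cd86 was highest in the Bhlhe41-led memory or B-1-like cluster, with 544 CPM in FMD and 556 CPM in ad libitum cells. The heat shock-high cluster had 241 CPM in FMD and 221 CPM in ad libitum cells, below every other B-like cluster in each library.

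Cd69 (ENSMUSG00000030156, chromosome 6, 129267325 to 129275436), an early activation antigen that also marks tissue retention, did not separate B-like from T-like cells. It had 457 CPM in FMD and 517 CPM in ad libitum B-like cells and 447 and 496 CPM in T-like cells. NK receptor-bearing T-like cells were highest, with 767 CPM in FMD and 998 CPM in ad libitum cells, and macrophage or dendritic-like cells were among the lowest with 75.6 and 89.9 CPM. Myc (ENSMUSG00000022346, chromosome 15, 61985391 to 61990374), the transcription factor that drives growth and ribosome production, had 217 CPM in FMD and 270.5 CPM in ad libitum B-like cells, 35.7 and 38.3 CPM in T-like cells and 30.1 and 41.1 CPM in myeloid-like cells. B-like cells thus stood 6.07-fold above T-like cells in the FMD and 7.07-fold above them in the ad libitum library, again less than the ratios of Cd79a. Egr-high cells were highest for Myc, and the next 3 clusters, Bhlhe41-led (237 CPM in FMD and 278 CPM in ad libitum cells), heat shock-high (238 and 261 CPM) and interferon-responding (241 and 219 CPM), had ranges that overlapped. In neutrophil-like cells Myc had 0 UMIs in 54 FMD cells and 1 UMI in 68 ad libitum cells.

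**Figure D1:**
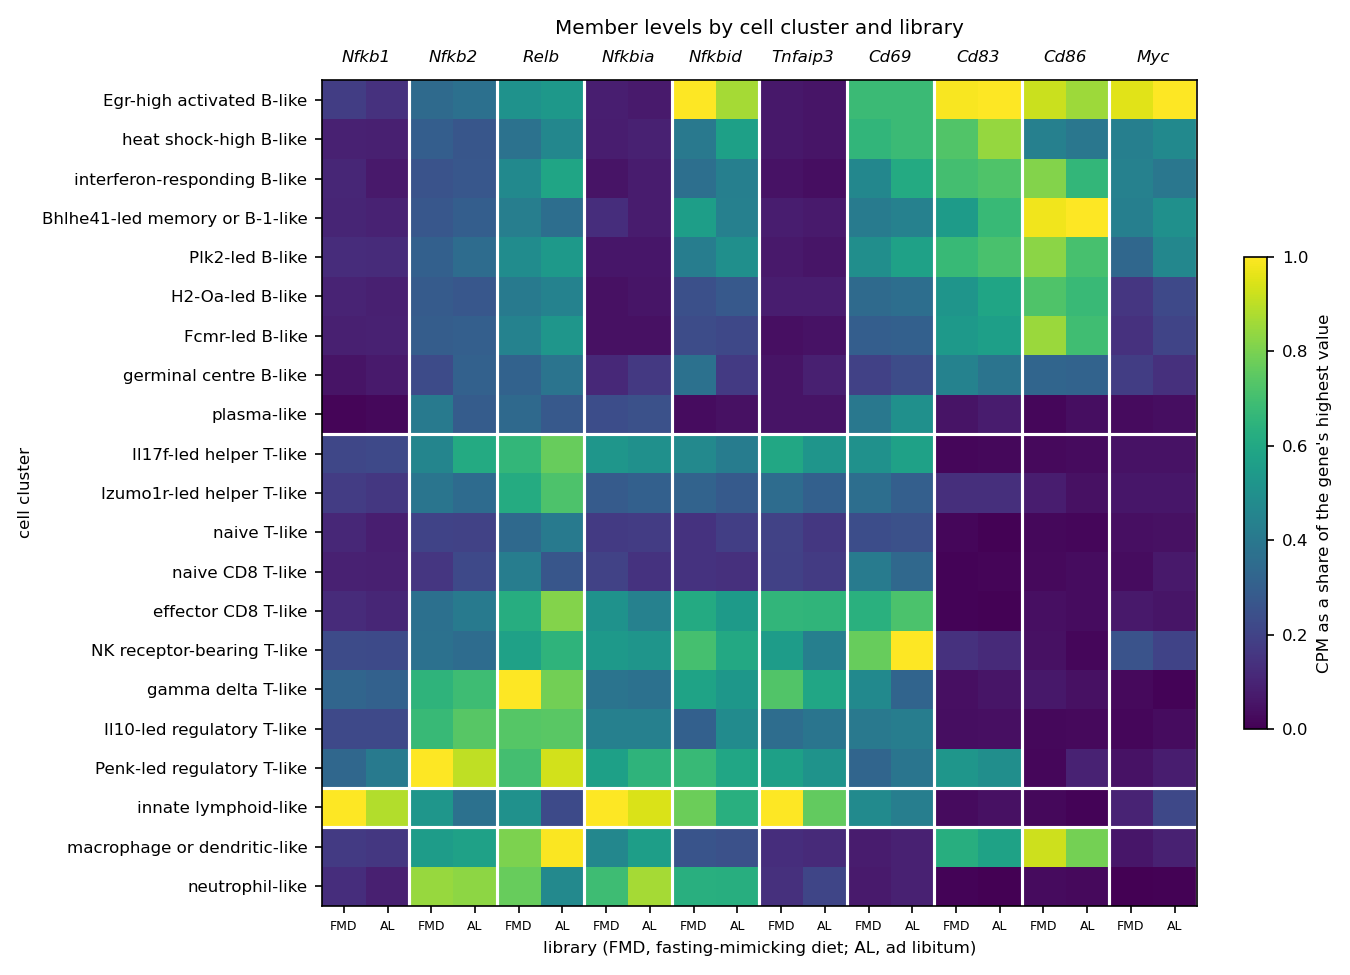
Level of each gene (columns, FMD left and ad libitum right of each pair) in 21 cell clusters (rows), as CPM divided by that gene's highest value, so colors compare clusters within a gene and not genes with each other. Nfkb1, Nfkbia and Tnfaip3 are brightest in innate lymphoid-like cells, and Nfkbid, Cd83 and Myc in Egr-high activated B-like cells.

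Patterns across clusters fell into groups when the level of each gene was correlated as log2(CPM + 1) over 40 points, 20 clusters with at least 50 cells per library times 2 libraries. These points share libraries and depth and span B-like, T-like and myeloid-like clusters, so differences between classes enter the values, which are descriptions. Innate lymphoid-like cells (25 in ad libitum) and plasma-like cells (32 in FMD) fell short of that minimum, and the unnamed low-depth cluster met it. Nfkbia and Tnfaip3 ran together (Pearson r = 0.84), as did Cd83 and Cd86 (0.84), while Cd86 and Tnfaip3 ran opposite (−0.81). Myc followed Cd83 (0.76) and Cd86 (0.74). The subunit genes Nfkb1, Nfkb2 and Relb also ran together, with values from 0.73 to 0.76, while Nfkbid and Myc were only loosely related (0.17). Among 9962 genes, the nearest in pattern to Cd86 were the MHC class II genes H2-Eb1 (0.970), H2-Ab1 (0.968) and Cd74 (0.967), and those nearest to Cd83 were Vav2 (0.924), Ciita (0.916), the master regulator of MHC class II, and Cd74 (0.9003).
The nearest to Nfkbia were Pim1 (0.957), Gadd45b (0.944) and Icam1 (0.943), and to Tnfaip3 Ubald2 (0.938), Il18r1 (0.933) and Prex1 (0.928). Nfkb2 lay nearest to Samsn1 (0.928), Tnfrsf1b (0.919), a TNF receptor, and Cmip (0.878), and Nfkb1 nearest to Hivep1 (0.861), Abcc1 (0.851) and Gpr65 (0.847). Looser neighbors were Mapkapk3 (0.809), Slc3a2 (0.781) and Tnfrsf1b (0.781) for Relb and Nedd9 (0.765), Ddx3x (0.714) and Kdm6b (0.705) for Nfkbid. Cd69 was nearest to Acap1 (0.875), Rsrc2 (0.872) and Gcn1l1 (0.853), and Myc to Hvcn1 (0.901), Phc2 (0.897) and Ptp4a3 (0.887).

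Within the B lineage, the Egr-high activated cluster stood apart for Myc and Nfkbid. Myc had 527 CPM in FMD and 551 CPM in ad libitum Egr-high cells, against 103 and 165 CPM in the 3 stateless clusters together, a log2 ratio of 2.36 [2.23, 2.48] in the FMD and 1.74 [1.64, 1.85] in the ad libitum library. The stateless clusters had less Myc in FMD and were mixed in unlike shares. Plk2-led cells, highest of the 3 for Myc, made up 14.2% of FMD and 21.5% of ad libitum B-like cells. The 2 ratios therefore do not compare Egr-high cells between the diets. For Nfkbid the Egr-high cells had 292 CPM in FMD and 253 CPM in ad libitum cells, against 80.5 and 96.8 CPM in the stateless clusters, a log2 ratio of 1.86 [1.71, 2.01] in the FMD and 1.39 [1.24, 1.53] in the ad libitum library. These 2 of the 10 genes were at least 2-fold higher in Egr-high cells in each library, beside 1.18% of 6808 genes in the FMD and 0.761% of 6834 genes in the ad libitum library. Cd69, Nfkb1, Cd83 and Nfkbia were higher by less, with log2 ratios of 0.95, 0.88, 0.81 and 0.81 in the FMD library and 0.72, 0.52, 0.68 and 0.45 in the ad libitum library. Tnfaip3 was not, at 0.16 [−0.00, 0.31] in FMD and −0.14 [−0.30, 0.02] in ad libitum cells. Clusters are cut from genes that vary with these, so the comparison describes the cluster and tests nothing.

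The other B lineage clusters had profiles of their own. Heat shock-high cells shared the raised Cd69 (656 CPM in FMD and 679.7 CPM in ad libitum cells). Against the stateless clusters their Myc was also higher, at log2 ratios of 1.21 in the FMD and 0.66 in the ad libitum library. Their Nfkbia was higher too, at 0.76 and 0.77, while their Cd86 was lower, at −0.90 and −0.80. Germinal centre B-like cells, dividing B cells that mutate their antibody genes, had 371 CPM of Nfkbia in FMD and 535 CPM in ad libitum cells, above the stateless clusters with 155 and 173 CPM. Their Cd86 was lower, at 180.5 CPM in FMD and 177 CPM in ad libitum cells, against 449 and 386 CPM in the stateless clusters. Plasma-like cells had little Cd86 (9.57 CPM in FMD and 20.6 CPM in ad libitum cells), Cd83 (80.4 and 113 CPM) and Myc (15.3 and 20.6 CPM), while Cd69 was at 398 and 499.6 CPM. Their Cd79a was 1952 CPM in FMD and 1180.0 CPM in ad libitum cells, so the 2 plasma-like sets, of 32 and 93 cells, were not alike in other B cell transcripts.

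**Figure D2:**
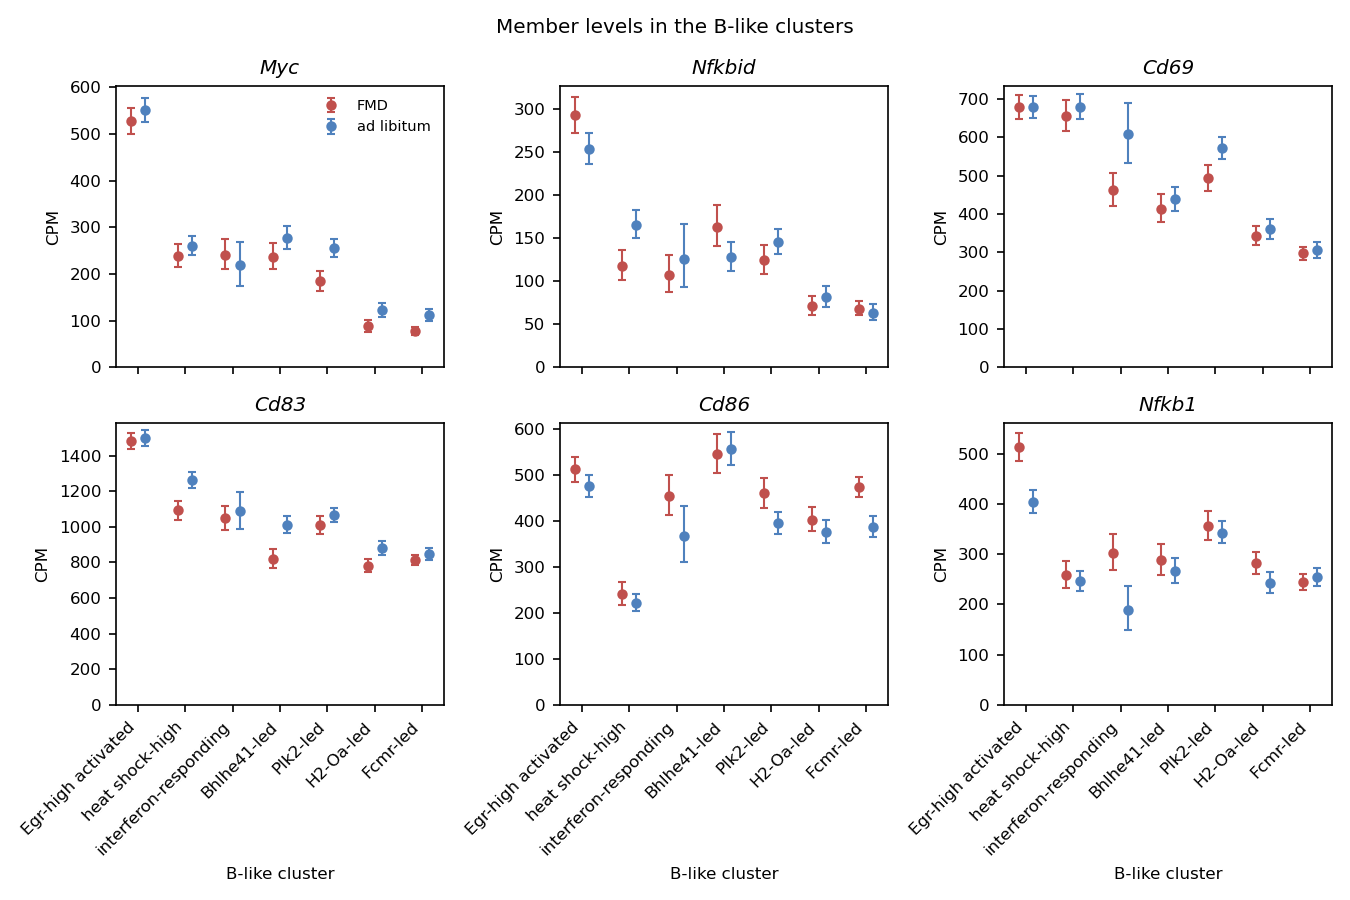
CPM of 6 of the genes (vertical axes, from 0) in the 7 B-like clusters, FMD points left and ad libitum points right, with 95% Poisson intervals of counting error. Egr-high cells are highest for Myc, Nfkbid, Cd83 and Nfkb1 in both libraries, and FMD lies below ad libitum for Myc in the Plk2-led, H2-Oa-led and Fcmr-led clusters.

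Cells were also scored by how many UMIs of the 10 genes they held together, after each was thinned to 1000 UMIs. At least 3 such UMIs were found in 51.2% [49.3, 53.1] of 2719 FMD and 53.6% [51.8, 55.4] of 3032 ad libitum B-like cells, and 5 and 4 shallower cells were left out. In the Egr-high cluster the shares were 72.3% [68.3, 76.2] in FMD and 69.4% [65.5, 73.1] in ad libitum cells, and in the Fcmr-led cluster 39.4% [35.8, 43.0] and 40.5% [36.4, 44.7]. The intervals of the libraries overlapped in all 3 of these comparisons. High shares were not particular to B-like cells. In T-like cells they were 60.6% in FMD and 58.6% in ad libitum cells. Innate lymphoid-like cells had 96.25% and 96%, and Penk-led regulatory T-like cells had 88.5% and 91.5%, above the Egr-high cluster. Within B-like cells, those with a Myc UMI held an Nfkbid UMI more often than those without, at 19.5% and 8.504% in the FMD and 19.3% and 10.2% in the ad libitum library. For Cd69 the shares were 44.6% and 28.1% in the FMD and 41.5% and 30.2% in the ad libitum library. These shares mix states. Within the Egr-high cluster the Nfkbid shares were 21.7% [15.8, 28.6] and 14.3% [10.79, 18.496] in the FMD and 20.6% [15.2, 26.9] and 18.05% [14.4, 22.2] in the ad libitum library, with overlapping intervals. Over all B-like cells Cd86 was found in 32.6% [28.2, 37.3] of Myc-positive and 33.4% [31.4, 35.3] of Myc-negative cells of the FMD library, and in 32.1% [28.3, 36.2] and 28.0% [26.2, 29.8] in the ad libitum library.

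The next comparison asked whether these genes differed between the FMD and the ad libitum library in B-like cells. Differences were small. Myc was the only one of the 10 past 1.2-fold, with 217 CPM [209, 224] in FMD against 270.5 CPM [262, 279] in ad libitum cells (3109 and 4233 UMIs), 1.25-fold lower at a log2 ratio of −0.32 [−0.39, −0.25]. Of the 10 genes, 1 was thus at least 1.2-fold lower and 0 were at least 1.2-fold higher, beside 7.69% lower and 5.72% higher among 8708 genes with at least 100 UMIs, a share near that background. The median log2 ratio of the 10 was −0.09, against −0.00 over all genes.
Cd69 had 457 CPM in FMD and 517 CPM in ad libitum cells (−0.18 [−0.23, −0.13]) and Cd83 had 1000.01 and 1109.7 CPM (−0.15 [−0.18, −0.12]). Relb had 108 CPM in FMD and 118 CPM in ad libitum cells (−0.13 [−0.23, −0.03]), and Nfkbid had 132 and 143 CPM (−0.11 [−0.20, −0.02]). Cd86 lay the other way, with 448 CPM in FMD and 395 CPM in ad libitum cells (0.18 [0.13, 0.23]), and so did Nfkb1 with 323 and 296 CPM (0.12 [0.06, 0.18]). Nfkb2 (−0.06), Nfkbia (−0.03) and Tnfaip3 (0.03) had intervals that included 0.

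The libraries also differed in the makeup of their B-like cells. The Fcmr-led cluster made up 27.5% [25.8, 29.2] of FMD and 18.3% [16.95, 19.7] of ad libitum B-like cells, the Plk2-led cluster 14.2% [12.95, 15.6] and 21.5% [20.03, 22.98], and the heat shock-high cluster 11.3% [10.1, 12.6] and 16.7% [15.4, 18.1]. The interferon-responding cluster made up 7.05% [6.12, 8.07] of FMD and 2.47% [1.95, 3.09] of ad libitum B-like cells. In both libraries Myc was lower in the Fcmr-led cluster than in the Plk2-led, heat shock-high and interferon-responding clusters. With the same state weights in both libraries the log2 ratio of Myc was −0.21 and none of the 10 genes passed 1.2-fold. Cd69 was then at −0.09 and Nfkbid at −0.02, while Cd86 was at 0.17 and Nfkb1 at 0.16, and Nfkbia was at 0.03 against −0.03 without the weights. The immediate early and heat shock genes, which tissue digestion can raise, moved with Myc: their summed level in B-like cells was 10006 CPM in FMD and 12246 CPM in ad libitum cells, over all 19 genes. Their part in the Myc difference was not tested.
Other marker sums in B-like cells were 39.1 CPM in FMD and 35.8 CPM in ad libitum cells for 7 T cell markers and 6.06 and 7.03 CPM for 9 macrophage markers. The median mitochondrial share was 5.28% in FMD and 5.20% in ad libitum B-like cells.

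**Figure D3:**
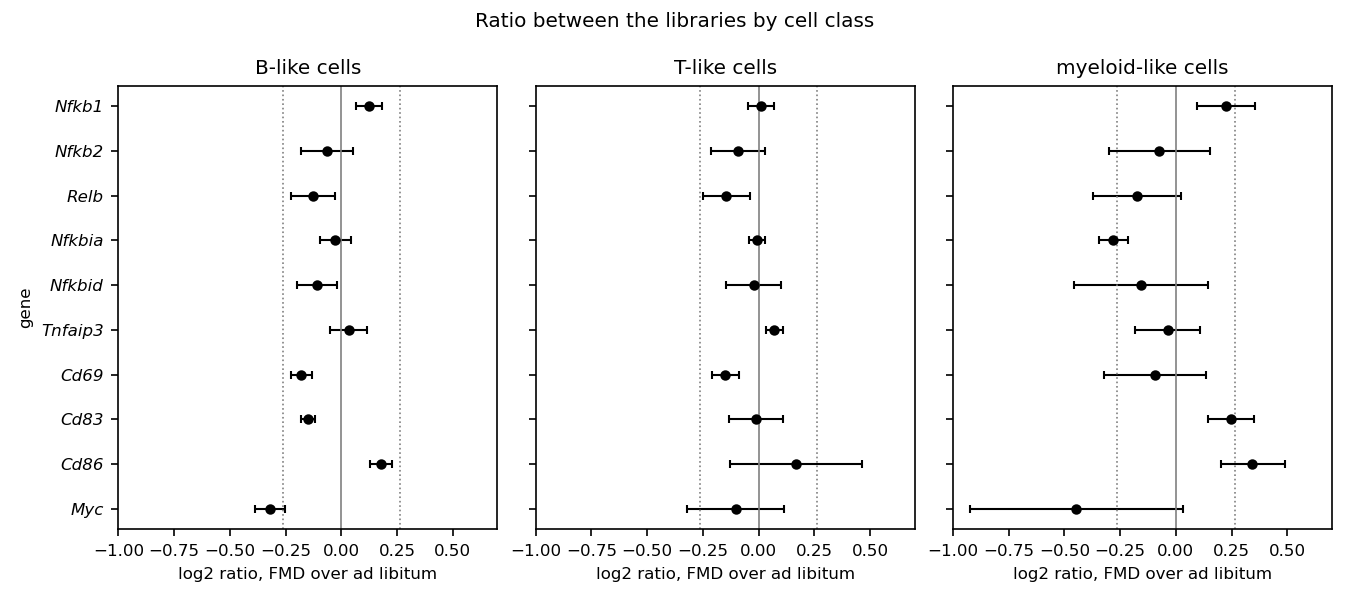
Log2 ratio of FMD over ad libitum for each gene (rows) in B-like, T-like and myeloid-like cells, with 95% counting intervals; the solid line is no difference and the dotted lines are 1.2-fold. In B-like cells Myc alone lies past a dotted line, and in T-like cells no gene does.

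Resolved by state, Myc differed by unlike amounts. In Fcmr-led cells Myc had 78.1 CPM in FMD against 112 CPM in ad libitum cells (−0.52 [−0.75, −0.29]), in H2-Oa-led cells 87.7 against 122 CPM (−0.48 [−0.75, −0.21]), and in Plk2-led cells 184 against 255 CPM (−0.47 [−0.67, −0.28]). In Egr-high cells, where Myc was highest, it had 527 CPM in FMD and 551 CPM in ad libitum cells (−0.06 [−0.17, 0.04]). Leaving out the cell with the most Myc UMIs of each library gave −0.52, −0.49, −0.48 and −0.06 in these 4 clusters. The Bhlhe41-led cluster was at −0.23 [−0.44, −0.01], the heat shock-high cluster at −0.13 [−0.32, 0.06] and the interferon-responding cluster at 0.14 [−0.22, 0.52]. At 1000 UMIs per cell, 6.29% of FMD and 8.63% of ad libitum Fcmr-led cells held a Myc UMI, and 33.8% and 33.3% of Egr-high cells did.

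Over the 7 B-like clusters the log2 ratio of Cd69 lay between −0.39 and −0.00, with an interval clear of 0 in 2 of them, the Plk2-led and interferon-responding clusters. That of Cd83 lay between −0.30 and −0.02, with an interval clear of 0 in 3 of them, the H2-Oa-led, heat shock-high and Bhlhe41-led clusters. In the Egr-high cluster, where both were high, they differed little, with 678 CPM of Cd69 in FMD and 679.6 CPM in ad libitum cells and 1481 and 1497 CPM of Cd83. Cd86 lay between −0.03 and 0.31, with the largest ratios in the interferon-responding (454 CPM in FMD and 367 CPM in ad libitum cells, 0.31 [0.03, 0.59]) and Fcmr-led clusters (473 and 386 CPM, 0.29 [0.19, 0.40]). Its lowest ratio was in the Bhlhe41-led cluster, where Cd86 was highest, and the intervals of the H2-Oa-led and heat shock-high clusters also included 0.
Nfkb1 had an interval clear of 0 in 3 clusters, the Egr-high, H2-Oa-led and interferon-responding clusters, and had 513 CPM in FMD against 405 CPM in ad libitum Egr-high cells (0.34 [0.23, 0.46]). At 1000 UMIs per cell 37.1% [33.0, 41.5] of FMD and 26.6% [23.1, 30.3] of ad libitum Egr-high cells held an Nfkb1 UMI. Nfkbid (0.21 [0.06, 0.35]), Nfkbia (0.20 [0.05, 0.35]) and Tnfaip3 (0.24 [0.04, 0.43]) were on the same side in that cluster, each inside 1.2-fold. Nfkb2 (−0.10 [−0.35, 0.15]) and Relb (−0.07 [−0.28, 0.15]) lay on the other side there, with intervals that included 0. The gene on the list of related genes that codes for another inhibitor, Nfkbie, had 129 CPM in FMD and 102 CPM in ad libitum Egr-high cells, and Rel, the main canonical subunit of B cells, had 1478 and 1488 CPM. In that cluster the 6 related Rel and IkB genes had a median log2 ratio of 0.03. The 11 tested negative regulators were at −0.08 and all genes at 0.01.
Nfkbia differed most in the Bhlhe41-led cluster, with 421 CPM [385, 460.0] in FMD against 242 CPM [219, 266] in ad libitum cells (0.80 [0.61, 0.99]), in 139 and 218 cells. A Nfkbia UMI was found in 29.5% [22.1, 37.8] of FMD and 17.9% [13.04, 23.6] of ad libitum cells of that cluster at 1000 UMIs per cell.

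In T-like cells none of the 10 genes passed 1.2-fold, beside 7.21% of 8617 genes lower and 8.66% higher. Cd69 had 447 CPM in FMD and 496 CPM in ad libitum cells (−0.15 [−0.21, −0.09]) and Relb had 145 and 161 CPM (−0.14 [−0.25, −0.04]). The ratio of Cd86 was farther from 0, at 0.17 [−0.13, 0.47] from 207 and 178 UMIs, with an interval that included 0. Tnfaip3 had 1132 CPM in FMD and 1078 CPM in ad libitum cells (0.07 [0.03, 0.11]). Nfkbia (−0.01 [−0.04, 0.03]) and Nfkb1 (0.01 [−0.05, 0.07]) had intervals that included 0. With cells thinned to 1000 UMIs, Cd83 was at 0.51, against −0.01 with all UMIs, and Relb at −0.32, both past 1.2-fold, and with doublets kept Cd83 was at 0.21. B cell markers summed to 136 CPM in FMD and 73.9 CPM in ad libitum T-like cells, and the part of those transcripts in the T-like Cd83, Cd86 and Myc levels was not tested.

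In myeloid-like cells Nfkbia had 1605 CPM in FMD and 1950.4 CPM in ad libitum cells (−0.28 [−0.35, −0.22]) and Myc 30.1 and 41.1 CPM (−0.45 [−0.93, 0.03], 80 and 72 UMIs). Cd86 had 439.8 CPM in FMD and 347 CPM in ad libitum cells (0.34 [0.20, 0.49]). Markers of other cells differed in the same class: 7 T cell markers summed to 103 CPM in FMD and 33.6 CPM in ad libitum myeloid-like cells, and 10 B cell markers to 203 and 151 CPM, and their part in these values was not tested. Of the 10 genes, 2 were at least 1.2-fold lower and 1 was at least 1.2-fold higher, beside 17.4% of 4895 genes lower and 21.3% higher. Cd83, with 805 CPM in FMD and 679 CPM in ad libitum cells (0.25 [0.14, 0.35]), and Nfkb1, with 508 and 434 CPM (0.23 [0.10, 0.36]), were just inside that fold. The class mixed cell types in unlike amounts: 170 FMD and 129 ad libitum cells were macrophage or dendritic-like and 54 and 68 neutrophil-like, with median depths of the whole class of 10894.5 and 5004.5 UMIs.
Within macrophage or dendritic-like cells alone, Nfkbia had 1497 CPM in FMD and 1816 CPM in ad libitum cells (−0.28 [−0.35, −0.20]), Cd86 had 512 and 439 CPM (0.22 [0.08, 0.37]) and Nfkb1 had 475 and 459 CPM (0.05 [−0.09, 0.19]). Nfkbia was also lower in FMD neutrophil-like cells, with 2231 CPM against 2807 CPM in ad libitum cells (−0.33 [−0.50, −0.16]). With every cell thinned to 1000 UMIs the median of the 10 genes in myeloid-like cells was 0.37, against −0.08 with all UMIs, and Nfkb2 (0.69), Nfkbid (0.89) and Cd69 (0.28) lay above 0, while Nfkbia (−0.19), Myc (−1.08) and Cd86 (0.46) kept their side.

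The other genes of the pathway were read from 7 lists with 120 genes, and their counts in B-like cells stand beside 7.69% lower and 5.72% higher among all genes tested. In B-like cells, 8 of 16 tested genes of the B cell activation list were at least 1.2-fold lower in FMD and 0 higher, with a median log2 ratio of −0.25. Egr1, an immediate early transcription factor, had 245 CPM in FMD and 389 CPM in ad libitum cells (−0.67 [−0.73, −0.61]), and Slamf1 had 9.75 and 14.2 CPM (−0.54 [−0.86, −0.23]). The highest of that list were Nr4a3 (0.17) and the kinase gene Pim1 (0.16). The immediate early and heat shock list had 14 of 19 genes lower and 0 higher, with a median of −0.31: the chaperone genes Hspa1a, with 421 CPM in FMD and 735 CPM in ad libitum cells (−0.81), and Dnajb1, with 136 and 219.9 CPM (−0.69), were lowest, and Jund (−0.13) and Klf6 (−0.08) highest. The B cell activation list lay on the same side as the immediate early and heat shock list, and the part of the second in the first was not tested. These list values mix B cell states. Among Egr-high cells alone, the 14 tested B cell activation genes had a median of 0.01, against 0.01 over all genes. The 19 immediate early and heat shock genes had a median of −0.18 there.

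Of other NF-kB target genes, 4 of 18 were at least 1.2-fold lower and 1 higher, with a median of −0.14. The chemokine gene Ccl4 had 46.8 CPM in FMD and 87.4 CPM in ad libitum cells (−0.90 [−1.04, −0.77]) and Irf1 had 29.5 and 45.04 CPM (−0.61 [−0.79, −0.44]). Il1b had 15.95 CPM in FMD and 11.1 CPM in ad libitum cells (0.53 [0.24, 0.82]), beside 5.99 and 12.5 CPM of 6 neutrophil markers in the same B-like cells. Bcl2a1d was at 0.17, and its reads may be shared with near-identical copies. Among Egr-high cells alone, the 13 tested genes of this list had a median of 0.12. Of the remaining Rel and IkB genes 1 of 6 was lower and 0 higher, with a median of −0.02, namely Nfkbiz with 62.2 CPM in FMD and 75.1 CPM in ad libitum cells (−0.27 [−0.40, −0.14]), a nuclear IkB protein. Bcl3 (−0.10), Rela (0.10) and Nfkbie (0.12) stayed inside.
Of 23 tested receptors, adaptors and kinases 1 was lower, the Toll-like receptor adaptor Myd88 (15.6 CPM in FMD and 18.9 CPM in ad libitum cells, −0.28), and 1 higher, the ubiquitin ligase Traf6 (26.7 and 21.9 CPM, 0.29). The median was 0.01, with Birc2 at −0.21 and Prkcb, the B cell protein kinase C, at 0.21. Of 12 negative regulators 0 were lower and 0 higher, with a median of −0.02 and Traf3 (−0.19), Zc3h12a (−0.17), Tnip1 (0.05) and N4bp1 (0.07) at the ends. Of 16 ribosome and polyamine synthesis genes that are known Myc targets, 0 were lower and 0 higher, with a median of 0.09. Their ends were Polr1b (−0.17) and Wdr43 (−0.04) below and Cad (0.23) and Rcc1 (0.14) above, so this list did not lie on the side of Myc itself.

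**Figure D4:**
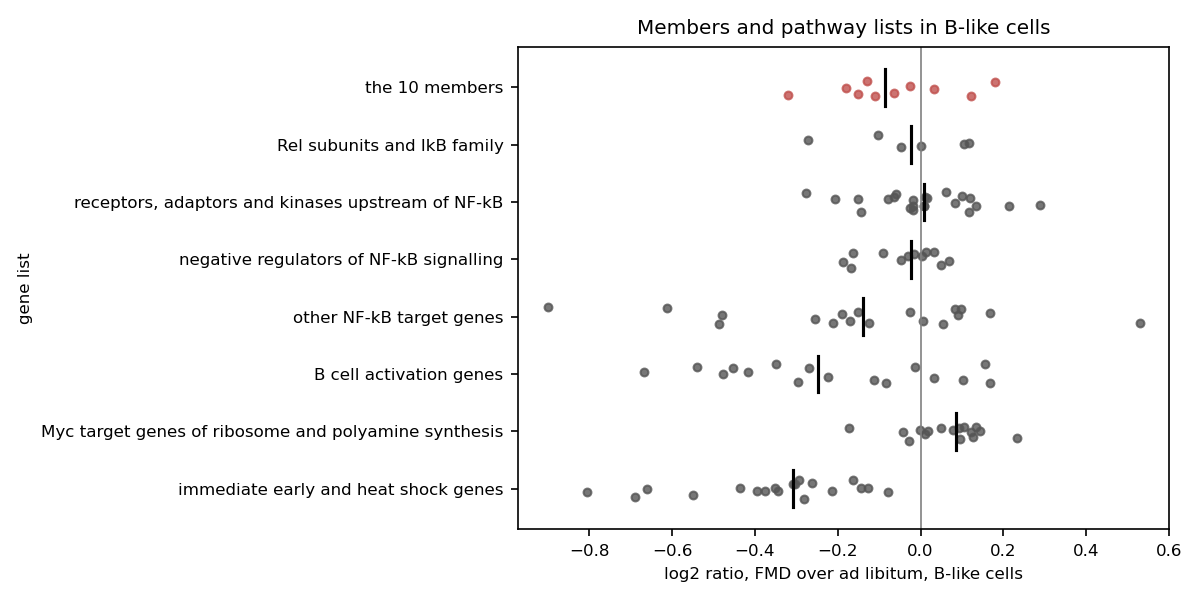
Log2 ratio of FMD over ad libitum in B-like cells for the 10 genes (red) and the tested genes of 7 pathway lists (grey), 1 point per gene with a vertical bar at each median. The immediate early and heat shock list (median −0.31) and the B cell activation list (−0.25) lie below 0, and the other lists have medians between −0.14 and 0.09.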

How the data were processed

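The deposited values are raw UMI counts per gene and barcode, with no normalization, in a format that names Cell Ranger 3.1.0, per the file headers. GRCm38, CASAVA 1.8, Seurat 2.3.4 and Cell Ranger 3.1.0 are named, without roles, in the submitters' processing notes. The FMD library held 5877 barcodes (35280790 UMIs) and the ad libitum library 6089 (35712762), none under 500 UMIs. Barcodes with under 200 genes (441 FMD, 475 ad libitum), over 20% mitochondrial UMIs (694, 661) or called doublets (120, 88) were removed. Scrublet called 2 cells in each library, too few to have worked, so cells were also removed that reached 5 UMIs and 0.5 per 1000 of their UMIs in more than 1 marker panel (B, T, myeloid).

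Cells were clustered together in scanpy 1.11.5 (2000 variable genes, 30 components, 15 neighbors, leidenalg 0.10.2 at resolution 1) without batch correction. Immunoglobulin, T cell receptor segment, mitochondrial and ribosomal protein genes, the 10 genes and 120 pathway genes could not be chosen as variable. Clusters were named from marker lists, and no deposited annotation was used. Counts were summed per class and library, with exact Poisson, binomial and conditional binomial intervals at 95%, which treat UMIs and cells as independent. Only the conditional binomial interval was checked on simulated data. The simulated counts were independent, so the check does not cover UMIs that cluster within cells. The fold of 1.2 was applied to genes with at least 100 UMIs over both libraries, and for shares each cell was thinned to 1000 UMIs. For a symbol on several lines (62 symbols) the first was used.

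Positions are from GENCODE M21 (GRCm38). Named genes were the 10, the 2 highest and 2 lowest of each list in B-like cells, and the 3 most alike in pattern to each of the 10, plus Nfkbie and Rel in Egr-high cells, chosen after their values were seen. The genes and lists were chosen with earlier results of these data known. The alternatives tried were the denominator, mitochondrial and doublet filters, resolution, clustering genes, thinning, the top cell left out, state weights and the minimum of UMIs.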

Additional observations from a re-analysis of the deposited data

Results flagged for a closer look

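Some genes moved in opposite directions in different clusters of the B lineage, each past 1.2-fold and with a counting interval clear of 0. There is 1 library per diet, so none of these differences between clusters was tested, and they were picked as the extremes over 8 clusters. The share of all genes past 1.2-fold is not given here for single clusters. Whether these genes moved more than others of like counts in such small clusters is therefore not known. Nfkbia was higher in FMD in the Bhlhe41-led cluster (421 CPM in FMD and 242 CPM in ad libitum cells, log2 ratio 0.80, or 0.79 without the top cell of each library) and lower in germinal centre B-like cells (371 and 535 CPM, −0.53, or −0.44 without the top cells).

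Nfkb1 was higher in FMD in interferon-responding B-like cells (303 CPM in FMD and 189 CPM in ad libitum cells, 0.68, from 291 and 75 UMIs) and lower in germinal centre B-like cells (144 and 206 CPM, −0.51). The shares of interferon-responding cells with an Nfkb1 UMI at 1000 UMIs per cell were close, at 24.5% [18.6, 31.2] in FMD and 22.7% [13.8, 33.8] in ad libitum cells. Nfkbid was higher in FMD germinal centre B-like cells (109 CPM in FMD and 49.5 CPM in ad libitum cells, 1.14, from 154 and 47 UMIs) and lower in the heat shock-high cluster (118 and 165 CPM, −0.49). At 1000 UMIs per cell 3 FMD and 3 ad libitum germinal centre B-like cells held a Nfkbid UMI, so no order was read from that share. These cells numbered 87 in FMD and 72 in ad libitum, and their T cell marker Cd3e stood at 43.2 and 70.5 CPM. The part of T cell transcripts in these values was not tested.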

How the results depend on the processing

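No paired analysis was possible because each diet has 1 library and both carry replicate number 1. In B-like cells the median log2 ratio of the 10 genes stayed between −0.10 and −0.04 over 9 alternatives, and Myc between −0.32 and −0.21. With the same state weights 0 genes were at least 1.2-fold lower in B-like cells, where 1 was otherwise. In myeloid-like cells the median was 0.37 with cells thinned to 1000 UMIs, against −0.08 with all UMIs, and Nfkb2, Nfkbid and Cd69 then changed side; the cause was not tested. State weights for T-like and myeloid-like cells, and single clusters without their top cells, were chosen after seeing the data; with the weights the T-like median was 0.03, against −0.02. Cd83 in T-like cells was at 0.51 with thinned cells and 0.21 with doublets kept, against −0.01. At 2000 UMIs per cell, 85.1% of FMD and 85.2% of ad libitum B-like cells held at least 3 UMIs of the 10 genes. The share of all genes at least 1.2-fold lower was 12.2% with at least 20 UMIs and 17.7% with at least 1 UMI in each library, and the share higher was 9.55% and 13.8%. The mast-like, plasmacytoid dendritic-like and ad libitum innate lymphoid-like values rest on few cells. Intervals ignore differences between mice and the clustering of UMIs within cells.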

Other observations

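Mast-like cells, 16 in FMD and 9 in ad libitum, had the highest Cd69 of any cluster, with 1480.5 CPM in FMD and 1775 CPM in ad libitum cells, and 3468 and 2434 CPM of Nfkbia. A cluster left unnamed for its low depth (median 1528 UMIs in FMD and 1322 UMIs in ad libitum cells) had B cell levels of Cd83, 916 CPM in FMD and 887 CPM in ad libitum cells, and of Cd79a, 976 and 1101 CPM. Its Cd86 was 756 CPM in FMD and 614 CPM in ad libitum cells.

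At a finer clustering, dendritic-like cells (38 in FMD and 54 in ad libitum) separated from macrophage-like cells (132 and 75). Relb had 263 CPM in FMD and 484 CPM in ad libitum dendritic-like cells, against 185 and 208 CPM in macrophage-like cells. Their median depth was 4766 UMIs in FMD and 1079 UMIs in ad libitum cells, and Cd79a stood at 616 and 450.3 CPM among them, so B cell transcripts were present in this set.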
